A study of Homo sapiens with 15 samples.

Results

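The level of 8 genes, BCHE, TMPRSS15, NUDT11, ENPP4, SLC27A6, SLC2A6, FPR1 and PNMA8A, was followed library by library through 5 lines of MCF10 human mammary epithelial cells. The 8 are among 60721 genes in the deposited tables. They were chosen by their measured levels, as genes nearly absent in some lines and expressed in others, so their levels are given as a description and carry no test. Poly(A) RNA was sequenced in 15 libraries, 3 for each line. MCF10 is the name used in the labels, for a non-tumorigenic line from human breast. The first line was the parental cells. The second carried an empty vector. The other 3 lines were edited at NF1 with guide RNA 1, with guide RNA 2, or with guides 1 and 2 together, and are called guide 1, guide 2 and both guides here. No line received a treatment, and all were grown in the same medium with horse serum, EGF, hydrocortisone, cholera toxin and insulin. The labels name the 3 libraries of a line biological replicates and do not say that they came from separate cultures, so p-values measure the spread between these libraries. Nor do the labels say whether a line was grown from 1 cell or from many, and clone history was not tested.

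Of the 8 genes, 3 were nearly absent in whole lines. BCHE, TMPRSS15 and NUDT11 each had at least 1 line in which every library lay under 0.1 CPM (the count of a gene scaled to a fixed library total). No line fell that low for the other 5 genes, which differed between lines in amount. Since the genes were chosen for near absence, this is a description, and the share of all genes with such a line was not counted. The definition of an on-off gene used below also asks for 1 CPM in every library of another line. BCHE and NUDT11 met it, as did 0.0848% of genes with a count. Lines kept in culture are populations of cells, and a line re-established from few of them carries the expression state of its founders. Genes outside the usual programme of a cell type are often held silent by chromatin, and methylation of cytosines that precede guanine (CG) is one mark of a silent promoter. Such a state can be copied through cell division, which is why genes of this kind are used to tell related lines apart. DNA methylation was not measured in these libraries.

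The sequences just before the start sites of BCHE, TMPRSS15 and NUDT11 are shown because these are the genes that were silent in whole lines, and because they differ in CG content. They are RefSeq sequences on GRCh38.p14, in which 7 of the 8 genes had a promoter entry and ENPP4 did not. Each is printed 5′ to 3′ on the strand of the gene, with CG in capitals. Bases that fall in a GENCODE exon of the gene are left out. The BCHE stretch is chr3:165837473-165837673, minus strand. The TMPRSS15 stretch is chr21:18403786-18404035, minus strand, and lies in an intron of the longer GENCODE model. The first 50 bases after its RefSeq start site were not found in a GENCODE transcript of the gene, whereas those of BCHE and NUDT11 were. The NUDT11 stretch is chrX:51496597-51496842, minus strand.
BCHE: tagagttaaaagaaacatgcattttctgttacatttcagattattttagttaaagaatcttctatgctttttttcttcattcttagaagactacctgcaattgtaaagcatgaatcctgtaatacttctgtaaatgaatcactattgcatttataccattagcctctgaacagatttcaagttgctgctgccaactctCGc
TMPRSS15: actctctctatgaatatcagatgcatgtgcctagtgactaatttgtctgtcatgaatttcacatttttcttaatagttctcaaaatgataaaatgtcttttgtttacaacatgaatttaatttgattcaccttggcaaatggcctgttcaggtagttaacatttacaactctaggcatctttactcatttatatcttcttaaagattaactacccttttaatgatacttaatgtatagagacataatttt
NUDT11: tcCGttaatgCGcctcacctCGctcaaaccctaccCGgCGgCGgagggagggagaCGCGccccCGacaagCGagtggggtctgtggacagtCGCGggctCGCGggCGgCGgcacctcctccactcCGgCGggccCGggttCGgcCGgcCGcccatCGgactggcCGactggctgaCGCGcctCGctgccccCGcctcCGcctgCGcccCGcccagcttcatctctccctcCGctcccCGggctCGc
Over the full 250 bases before the start site, NUDT11 held 35 CG, a number matched or exceeded by 5.80% of 35116 promoters. BCHE held 2 and TMPRSS15 held 0, against a median of 11. PNMA8A held 25, SLC2A6 28, SLC27A6 18 and FPR1 0. The letters TATAAA, read on either strand, occurred before BCHE and TMPRSS15 and before none of the other 5 genes with an entry; 10.7% of all promoters hold them in a window of that length. Genes with a silent line thus stood at both ends of CG content.

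The 15 libraries held 46129559 to 78976917 counts each (median 55942785), so that 3 counts, taken as the floor of detection, came to 0.0380 to 0.0650 CPM per library. This floor covers counting error only, as do the intervals below, because several reads can come from 1 molecule. NF1, which encodes neurofibromin, a GTPase-activating protein for RAS, ran from 26.0 to 51.3 CPM in the 9 edited libraries and from 115 to 159 CPM in the 6 unedited ones. It fell by 1.40 (SE 0.0888), 2.09 (SE 0.0909) and 2.16 (SE 0.0912) on the log2 scale in guide 1, guide 2 and both guides against the empty vector. The adjusted p values from edgeR's quasi-likelihood test with Benjamini-Hochberg adjustment were 4.71e-06, 1.22e-07 and 8.22e-08. In those comparisons 5.88%, 3.94% and 0.962% of 17457 tested genes were called. Of 10 basal mammary epithelial markers, 10 reached 1 CPM on average in 4 lines and 8 did so in guide 1, where CDH1 (E-cadherin) averaged 0.110 ± 0.0786 CPM (SD, n = 3) and TP63 0.166 ± 0.0321 CPM (SD, n = 3). Guide 2 replicate 2 stood apart from its own line. Without it 8 of the 10 markers reached 1 CPM on average in guide 2 too, and CDH1 and TP63 averaged 0.0397 and 0.0632 CPM there, against 91.4 and 75.8 CPM in replicate 2. Between it and the other guide 2 libraries 76.8% and 76.6% of genes differed beyond sampling noise. Between the other pairs of replicates that share was 24.6% to 65.8%. The 65.8% was between parental replicates 1 and 2, and parental cells too were uneven in these markers. Their libraries ran from 1.79 to 42.9 CPM for CDH1 and from 0.815 to 37.4 CPM for TP63.

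BCHE encodes butyrylcholinesterase, a secreted esterase that cleaves choline esters (ENSG00000114200, GRCh38 chr3:165772904-165837472, minus strand). In the empty vector it was almost absent, at 0.0350, 0.0738 and 0.0187 CPM in replicates 1, 2 and 3, or 7 counts in all. Guide 1 had 6.32, 6.86 and 2.47 CPM. Both guides had 2.69, 2.87 and 2.72 CPM. The libraries of the double-guide line were thus within 1.07 times of one another, while those of guide 1 spread 2.78-fold. Parental cells had 1.25, 0.752 and 0.931 CPM, and guide 2 had 0.181, 0.761 and 0.361 CPM. The line means rose from 0.0425 ± 0.0283 in the empty vector through 0.434 ± 0.297 in guide 2, 0.976 ± 0.250 in parental cells and 2.76 ± 0.0979 in both guides to 5.22 ± 2.40 CPM in guide 1 (SD, n = 3 each). Guide 2 overlapped with parental cells and both guides overlapped with guide 1. The empty vector, at 0.0268 CPM without replicate 2, overlapped with no other line, and guide 1 was 123-fold above its mean over all 3 libraries.

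TMPRSS15 encodes enteropeptidase, the serine protease of the duodenal brush border that activates trypsinogen (ENSG00000154646, chr21:18269116-18485879, minus strand). It had 0 counts in each of the 3 empty vector libraries. Guide 1 had 0.0191, 0.0253 and 0.0316 CPM, which is 5 counts in all, and both guides had 0.0650, 0.0357 and 0.0179 CPM, which is 6. Each of those 6 libraries was at or under the floor of 3 counts. Parental cells, in contrast, had 0.561, 5.80 and 5.26 CPM, and guide 2 had 12.4, 0.381 and 16.1 CPM. Parental replicate 1 and guide 2 replicate 2 therefore lay far under the other libraries of their lines, which spread 10.3-fold and 42.4-fold, and still above every library of the silent lines. Guide 2 averaged 9.64 ± 8.24 CPM (SD, n = 3), or 14.3 CPM without its replicate 2, and parental cells averaged 3.87 ± 2.88 CPM (SD, n = 3). Against a floor of 3 counts over the 3 empty vector libraries, the guide 2 mean was at least 530-fold higher. That figure holds for the mean, which rests on replicates 1 and 3, and not for replicate 2. None of 10 enterocyte markers reached 1 CPM on average in any line, and their summed level was between 0.0361 and 0.290 CPM in every library.

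NUDT11 encodes a Nudix hydrolase that removes phosphates from diphosphoinositol polyphosphates (ENSG00000196368, chrX:51490011-51496596, minus strand). In guide 1 its only count was 1 in replicate 2, which is 0.0127 CPM, and replicates 1 and 3 had 0. Guide 2 was intermediate, at 0.470, 1.41 and 0.361 CPM. Parental cells had 2.39, 1.52 and 3.01 CPM, the empty vector 2.43, 2.19 and 2.72 CPM, and both guides 1.89, 2.83 and 1.86 CPM. These 3 lines, with means of 2.30 ± 0.748, 2.45 ± 0.265 and 2.19 ± 0.556 CPM (SD, n = 3 each), overlapped with one another. All 6 libraries of guide 1 and guide 2 lay below all 9 of them. From summed counts the empty vector exceeded guide 1 by a ratio of 476, with an exact 95% counting interval of 85.0 to 18850. NUDT11 shares 11.5% of its 50-base words with NUDT10, the paralog on the same chromosome, so some reads could be assigned to either, but NUDT10 averaged at most 0.0310 CPM in any line.

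ENPP4 encodes a membrane-bound phosphodiesterase that cleaves diadenosine polyphosphates (ENSG00000001561, chr6:46129993-46146699, plus strand). It was off in no line. Both guides had 1.24, 1.09 and 1.18 CPM, and these 3 libraries lay above the other 12. Parental cells had 0.649, 0.595 and 0.736 CPM, and the empty vector had 0.595, 0.756 and 0.951 CPM. Guide 2 had 0.253, 0.326 and 0.304 CPM. Guide 1 was split, with 0.325 and 0.241 CPM in replicates 1 and 2 and 0.949 CPM in replicate 3, so that it overlapped with each line except both guides. The mean of both guides, 1.17 ± 0.0748 CPM, was 3.97-fold above that of guide 2, 0.294 ± 0.0375 CPM (SD, n = 3 each).

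SLC27A6 encodes fatty acid transport protein 6, a long-chain fatty acid carrier with acyl-CoA synthetase activity (ENSG00000113396, chr5:128538013-129033642, plus strand). The empty vector had 4.46, 4.50 and 9.21 CPM, above every other library. Both guides had 3.27, 2.41 and 2.56 CPM, and guide 1 had 1.38, 1.08 and 2.29 CPM. Parental cells had 0.456, 0.188 and 0.844 CPM, and guide 2 had 0.199, 0.725 and 0.231 CPM. Parental cells and guide 2 overlapped, and no other lines next to each other in the order did. The empty vector mean of 6.06 ± 2.73 CPM was 15.7-fold above the guide 2 mean of 0.385 ± 0.295 CPM (SD, n = 3 each), which was 0.215 CPM without replicate 2. SLC27A6 was high in the lines where TMPRSS15 had few or no counts and low in parental cells and guide 2, where TMPRSS15 was on. Its exons overlap those of FBN2 on the opposite strand, which averaged 286 to 335 CPM over the lines, and since the use of strand in counting is not given in the sources used here, reads of the shared stretch cannot be told apart.

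SLC2A6 encodes GLUT6, a member of the facilitative sugar transporter family (ENSG00000160326, chr9:133471095-133479137, minus strand). Guide 1 had 0.517, 0.393 and 0.411 CPM. Every other library lay between 1.43 and 3.72 CPM. Parental cells had 2.26, 1.99 and 1.49 CPM, the empty vector 2.22, 2.16 and 3.47 CPM, guide 2 1.43, 3.72 and 1.56 CPM, and both guides 2.54, 2.76 and 2.54 CPM. Neighbours in the order of those 4 lines overlapped. Guide 1 averaged 0.440 ± 0.0671 CPM and the empty vector 2.62 ± 0.739 CPM (SD, n = 3 each), a 5.94-fold difference in level. Guide 1 was the lowest line for both SLC2A6 and NUDT11, but only NUDT11 was silent there.

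FPR1 encodes the formyl peptide receptor that guides neutrophils towards bacterial peptides and that also binds peptides of annexin A1 (ENSG00000171051, chr19:51745172-51804110, minus strand). Parental cells had 3.68, 28.0 and 8.23 CPM, a 7.61-fold spread within 1 line. Both guides had 9.89, 9.50 and 9.08 CPM, which fell inside that spread. Guide 1 had 1.68, 1.63 and 1.22 CPM, guide 2 1.5, 0.562 and 1.97 CPM, and the empty vector 0.893, 1.16 and 0.392 CPM. All 6 libraries of parental cells and both guides lay above the other 9. Parental cells averaged 13.3 ± 12.9 CPM, or 5.95 CPM without replicate 2, and the empty vector averaged 0.815 ± 0.391 CPM (SD, n = 3 each). Without parental replicate 2, both guides, at 9.49 ± 0.402 CPM (SD, n = 3), had the highest mean. Of 10 myeloid markers 2, CD14 and CSF1R, reached 1 CPM on average in each line, while FCGR3A and TYROBP had no count in any library. The remaining markers were at most 0.242 CPM in any library (ITGAM). The summed level of the list thus came almost wholly from CD14 and CSF1R. That sum was 6.05 to 9.76 CPM in parental cells, 13.1 to 16.3 CPM in the empty vector and 11.9 to 13.1 CPM in both guides. It was 6.09 to 9.93 CPM in guide 1 and 7.20 to 7.77 CPM in guide 2. The part of other cell types in these levels was not tested, and in bulk RNA fewer expressing cells and less RNA per cell cannot be told apart.

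PNMA8A belongs to the PNMA family, whose first members were found as antigens in paraneoplastic neurological disease and which derives from retrotransposon Gag genes (ENSG00000182013, chr19:46466491-46471563, minus strand). It was detected in every library, with at least 578 counts. Guide 2 had 10.4, 11.1 and 11.9 CPM, under all other libraries. Parental cells had 15.6, 21.9 and 17.5 CPM, and both guides had 18.5, 18.5 and 17.5 CPM. The empty vector had 24.9, 24.1 and 23.1 CPM, and guide 1 had 30.1, 34.4 and 21.4 CPM. In guide 2, replicate 2 was no outlier for this gene, and the line mean of 11.2 ± 0.734 CPM was 2.56-fold below that of guide 1, 28.6 ± 6.62 CPM (SD, n = 3 each). Of 10 neuronal markers 1, SYT1, reached 1 CPM on average in each line.

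**Figure D1:**
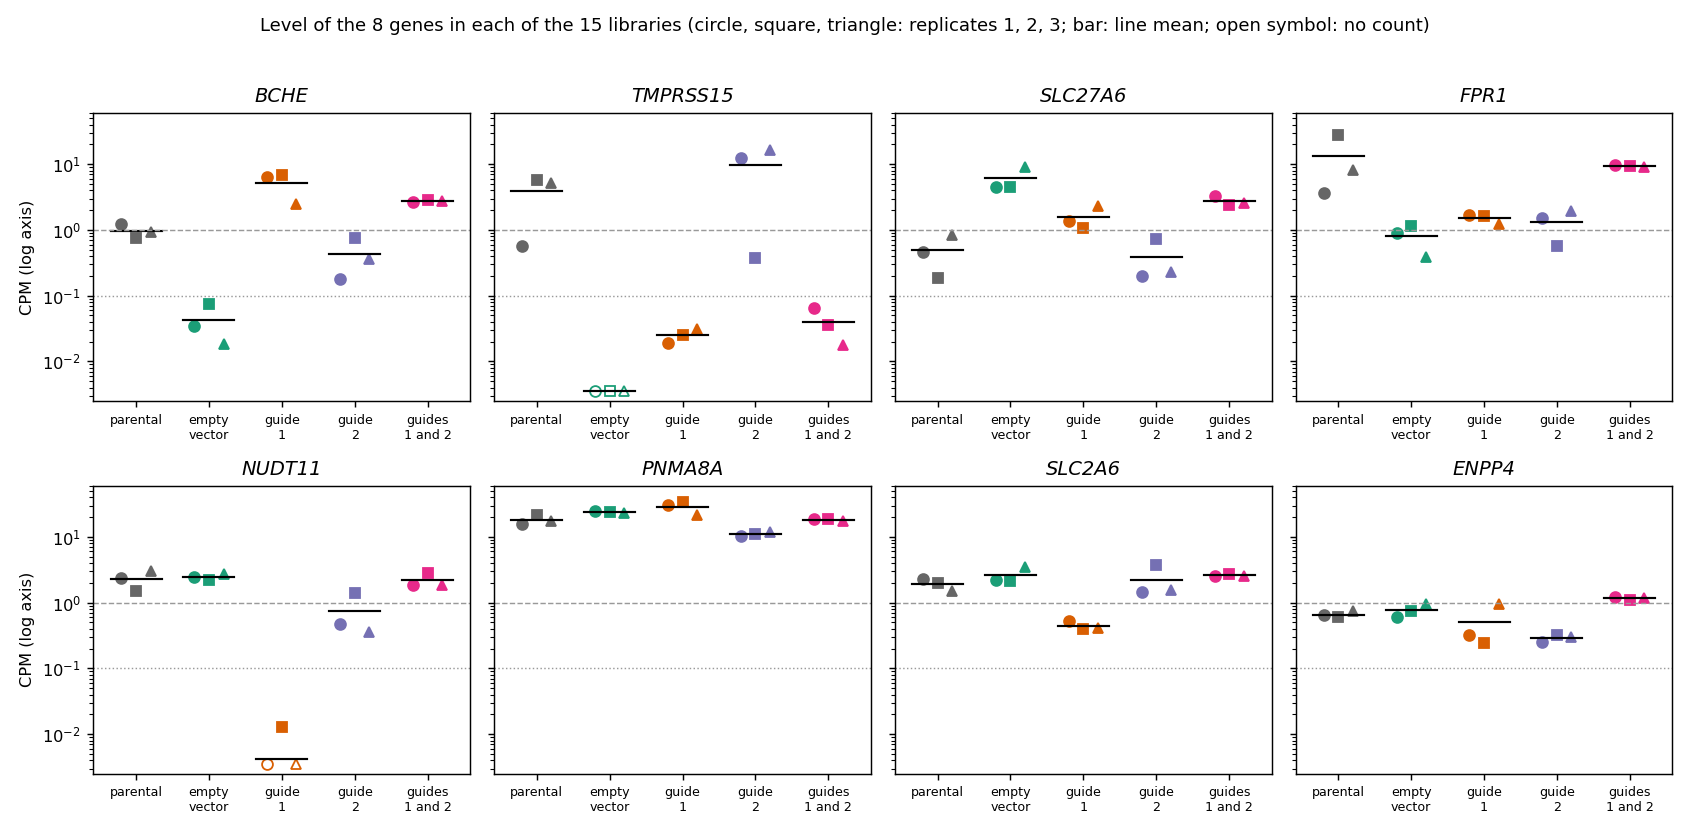
CPM of each of the 8 genes on a log axis by line, with 1 symbol per library (circle, square and triangle for replicates 1, 2 and 3), a bar at the line mean, open symbols at the bottom for libraries with no count, and lines at 0.1 CPM (dotted) and 1 CPM (dashed). BCHE in the empty vector, NUDT11 in guide 1, and TMPRSS15 in the empty vector, guide 1 and both guides lie under 0.1 CPM in all 3 libraries, while PNMA8A stays at 10.4 CPM or more throughout.

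The levels of the 9 edited and the 6 unedited libraries overlapped for each of the 8 genes, and did not for NF1, the edited gene. The share of all tested genes with such overlap was not counted. Since the 8 genes were chosen by their levels in the lines, their overlap is a description only. BCHE, for example, ran from 0.181 to 6.86 CPM in edited libraries (median 2.69) and from 0.0187 to 1.25 CPM in unedited ones (median 0.413). TMPRSS15 ran from 0.0179 to 16.1 CPM in edited libraries (median 0.0357) and from 0 to 5.80 CPM in unedited ones (median 0.281). The highest line was an edited one for BCHE, TMPRSS15, ENPP4 and PNMA8A, and an unedited one for NUDT11, SLC27A6, SLC2A6 and FPR1. The lowest line was the empty vector for BCHE, TMPRSS15 and FPR1, guide 1 for NUDT11 and SLC2A6, and guide 2 for ENPP4, SLC27A6 and PNMA8A. Parental cells and both guides were the lowest line for none of them.

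Distances between libraries over the 8 genes were taken as the root mean square difference of log2 CPM with a prior count of 2. The nearest library belonged to the same line for 13 of 15 libraries. The exceptions were parental replicate 1 and guide 2 replicate 2, which were nearest to each other at a distance of 1.14, while the nearest library of its own line was 1.25 away for the first and 2.14 for the second. The 3 libraries of both guides were the closest group, with nearest distances of 0.267 to 0.323. Over all other tested genes the nearest library was of the same line for 11 of 15, and guide 2 replicate 2 was again nearest to parental replicate 1. Parental replicate 2 and guide 1 replicate 3 were nearest to guide 2 replicate 3, and parental replicate 3 to replicate 1 of both guides. Since the 8 genes were chosen for differences between lines, the count of 13 is not independent of that choice. The first principal component of the other genes held 46.6% of the variance, with guide 2 replicate 2 at 92.1 and the other guide 2 libraries at -45.9 and -47.7. Parental replicates 1, 2 and 3 were spread along it as well, at 47.3, -25.2 and 23.4.

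**Figure D2:**
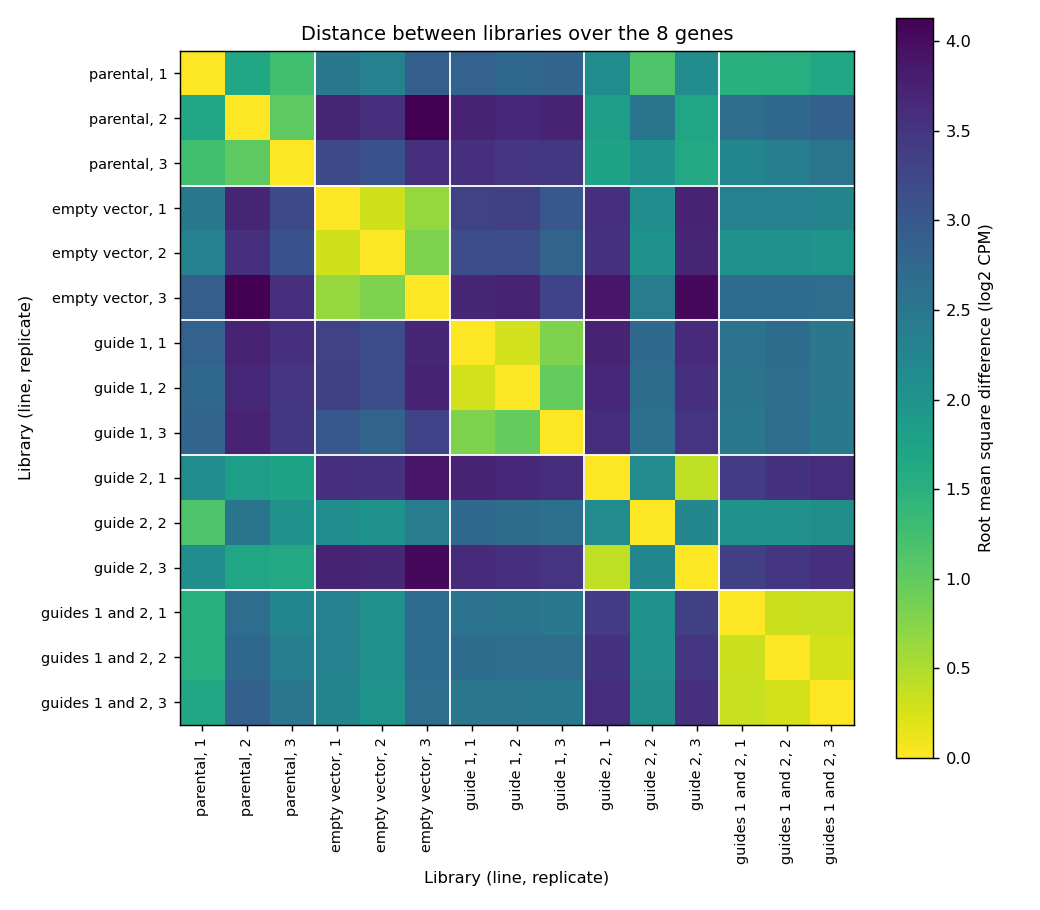
Root mean square difference in log2 CPM over the 8 genes between each pair of the 15 libraries, with dark cells far apart and white lines between the 5 lines. The empty vector, guide 1 and both guides form bright blocks, and the row of guide 2 replicate 2 is brightest, its own cell aside, at parental replicate 1, with a distance of 1.14.

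The difference in log2 CPM between the highest and the lowest line mean was 6.98 for TMPRSS15, 6.02 for NUDT11 and 6.02 for BCHE, which placed them at ranks 13, 23 and 24 of 17457 tested genes. SLC27A6 followed with 4.0 and FPR1 with 3.59, at ranks 117 and 163. SLC2A6 had 2.48, ENPP4 1.87 and PNMA8A 1.33, against 0.44 for the median gene. A range as large as that of PNMA8A was found in 8.66% of tested genes and one as large as that of ENPP4 in 4.03%, so these genes were not rare in this respect. The lines accounted for 74.0% (ENPP4) to 96.5% (NUDT11) of the variance of each gene over the 15 libraries, with 39.8% for the median gene. For TMPRSS15 this share was 84.2%, and it was 95.3% without guide 2 replicate 2, when that of the median gene rose from 39.8% to 53.8%. These ranges use the levels by which the genes were picked and describe them only.

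**Figure D3:**
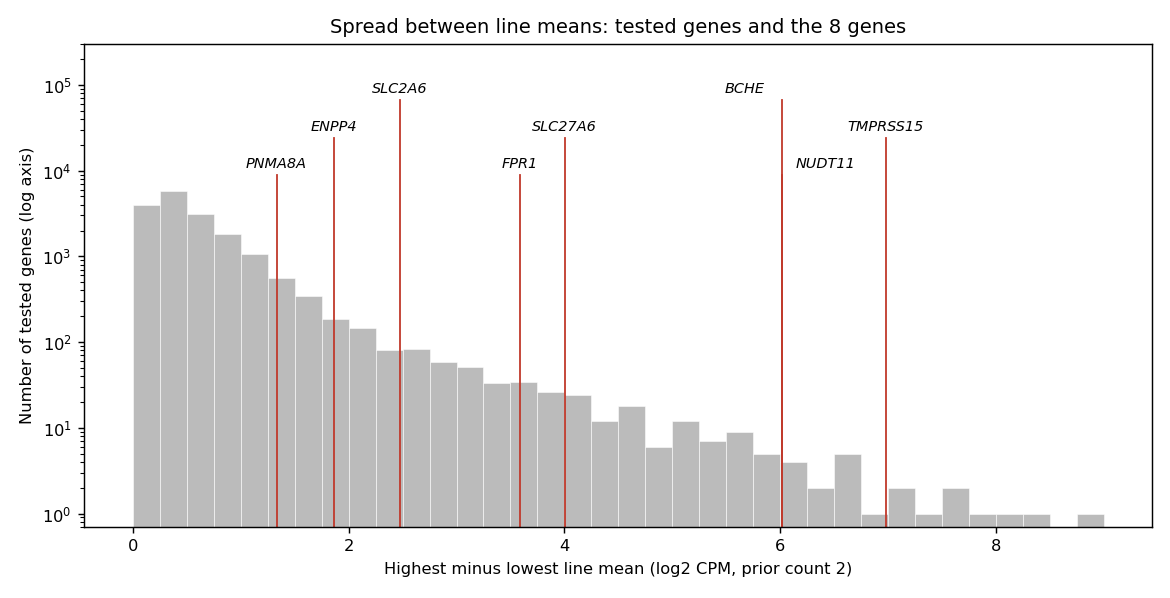
Number of tested genes (log axis) by the difference between the highest and lowest line mean in log2 CPM (prior count 2), with the 8 genes marked by red lines. TMPRSS15, BCHE and NUDT11 lie in the far tail at 6.98, 6.02 and 6.02, whereas PNMA8A at 1.33 lies among many other genes.

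To see how common silent lines were, every gene with a count was classed as on-off when all 3 libraries of some line reached 1 CPM and all 3 of another line stayed under 0.1 CPM. That held for 30 of 35374 genes, or 0.0848%, of which 29 were protein-coding. BCHE (off in the empty vector) and NUDT11 (off in guide 1) were among them. TMPRSS15 missed the definition because parental replicate 1 and guide 2 replicate 2 were under 1 CPM, and met it when line means were used or when either library was left out. BCHE was the only gene of the 30 that was off in the empty vector. NUDT11 was 1 of 27 genes off in guide 1, 24 of them off in no other line when all 15 libraries were used. That number rests on guide 2 replicate 2: in 22 of the 27 genes guide 2 replicates 1 and 3 were under 0.1 CPM as well, and 15 of these 22 reached 1 CPM in replicate 2. Without that library 5 of the 27, NUDT11 among them, were off in guide 1 alone. The line in which most of the 30 genes were on was the empty vector, with 26, followed by both guides with 12, while parental cells and guide 1 had 2 each and guide 2 had 0. Of these 30 genes none was off in all 3 edited lines, and none was off in both unedited lines. The absence of a gene off in all 3 edited lines also rests on guide 2 replicate 2. TREM2, on in the empty vector, was off in guide 1 and both guides. In guide 2 it had 0, 0.2175 and 0 CPM in replicates 1, 2 and 3. Without guide 2 replicate 2 there were 41 on-off genes, with 28 off in guide 1 and 33 off in guide 2.

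The following on-off genes were chosen after their values were seen. FAT2, an atypical cadherin, averaged 98.7 CPM in the empty vector, 49.9 CPM in parental cells and 0.0485 CPM in guide 1. In guide 2 it had 0, 193 and 0.0289 CPM. LAD1, a protein of epithelial anchoring filaments, averaged 34.5 and 0.0244 CPM in the empty vector and guide 1, and had 0.0181, 104.6 and 0.0145 CPM in guide 2. OCLN (occludin), MARVELD3 and CRB3, which belong to tight junctions and apical polarity, averaged 2.29, 3.50 and 2.21 CPM in the empty vector and 0.0572, 0 and 0 CPM in guide 1. IVL and SPRR1B, precursors of the cornified envelope, averaged 3.04 and 4.51 CPM in the empty vector and 0.0402 and 0 CPM in guide 1. For these last 5 genes, too, guide 2 replicates 1 and 3 were under 0.1 CPM, and replicate 2 had from 0.779 CPM (IVL) to 31.5 CPM (SPRR1B). Low levels of these 7 genes were therefore not particular to guide 1. CDH1 and TP63 were low in the same libraries, as given above, and their part in the level of NUDT11 was not tested.

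**Figure D4:**
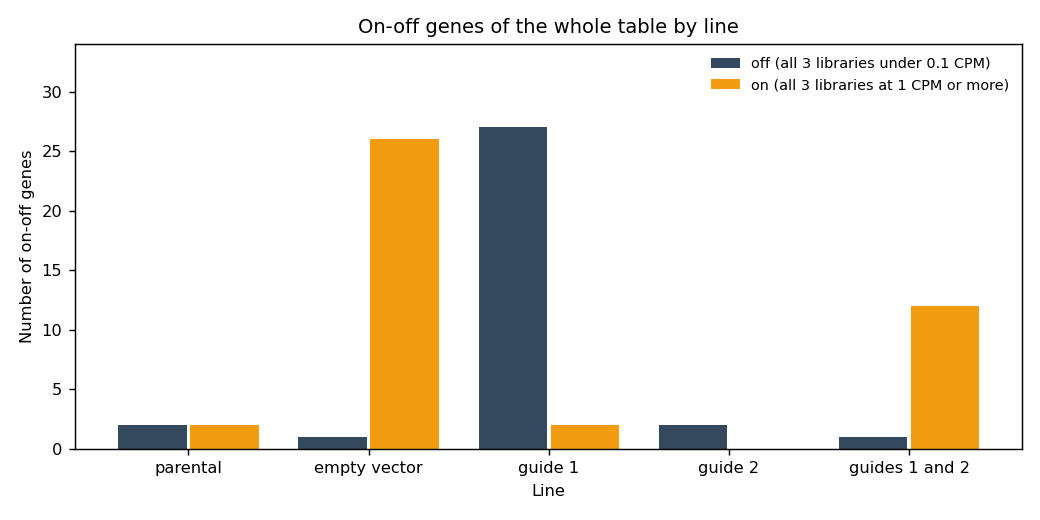
Number of the 30 on-off genes that were off (dark bars) and on (orange bars) in each line; a gene can be off or on in several lines, and lines between the thresholds are not counted. There are 27 off genes in guide 1 and 26 on genes in the empty vector; the 2 off genes of guide 2 rest on its replicate 2, without which 33 of 41 on-off genes were off in guide 2.

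The genes most like each of the 8 were sought by Pearson correlation of log2 CPM over the 15 libraries. The search covered 12863 tested genes with an average log2 CPM of at least 0 and left out the 8 genes themselves. These correlations are descriptions, because libraries of a line are not independent of one another. NUDT11 was most like JAM3 (r = 0.947), LMX1B (r = 0.925) and GATA6 (r = 0.924). JAM3, a junctional adhesion molecule, averaged 6.58 CPM in both guides, 4.59 CPM in parental cells and 0.101 CPM in guide 1. SLC2A6 was most like LMX1B (r = 0.927), ZNF711 (r = 0.912) and HES4 (r = 0.907). NUDT11 and SLC2A6, each left out of the search for the other, correlated at r = 0.926. LMX1B, a LIM homeodomain factor, thus headed or nearly headed both lists, at 0.127 CPM in guide 1 and 2.64 to 4.14 CPM in the other lines. TMPRSS15 was most like ARL10 (r = 0.941), which averaged 5.06 CPM in guide 2 and 1.22 CPM in the empty vector, then SHISAL1 (r = 0.905) and CAV1 (r = 0.866). SLC27A6 was most like the non-coding CASC19 (r = 0.937), then RHOF (r = 0.895) and AFF1 (r = 0.891).

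The highest correlation was lowest for BCHE among the 8 genes. Its nearest genes were CDO1 (r = 0.860), the dioxygenase of cysteine breakdown, then ERCC5 (r = 0.856) and FAM234B (r = 0.832). CDO1 itself ranged only from 0.478 CPM in the empty vector to 2.03 CPM in both guides. FPR1 was nearest to DDX50 (r = 0.925), EFCAB2 (r = 0.894) and GABRQ (r = 0.872). Of these only GABRQ, a GABA receptor subunit, varied by more than 2-fold, from 0.676 CPM in the empty vector to 3.08 CPM in parental cells. ENPP4 was nearest to ILDR2 (r = 0.894), NEO1 (r = 0.877) and DLG3 (r = 0.874). PNMA8A was nearest to TFDP2 (r = 0.905), ZMYM2 (r = 0.874) and GOLGB1 (r = 0.865), all of which were expressed in every line.

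Relatives of the 8 genes were tested for differences between lines, since the rule for the 8 genes did not use their levels, though the list of relatives was drawn up with earlier results of these data known. Of 90 listed genes of the same families and pathways, 50 passed the filter on low counts and 12 had no count in any library. By edgeR's quasi-likelihood test, 5 of the 50 differed among the 5 lines, and 4.30% of all tested genes did. The median range between lines was 0.87 for these 50 genes and 0.45 for all tested genes on the log2 scale. The 5 were SPINT1, an inhibitor of membrane-bound serine proteases (Benjamini-Hochberg adjusted p = 0.00289 by edgeR), ENPP5 (0.00647), TMPRSS3 (0.00861), SLC2A9 (0.0326) and SLC2A1 (0.0456). None was a relative of BCHE, SLC27A6, FPR1, NUDT11 or PNMA8A. SPINT1, ENPP5 and TMPRSS3 were called under each of 19 alternative fits, while SLC2A9 and SLC2A1 were called in 9 and 6 of them. The count of 5 became 3 without parental replicate 3, any empty vector library, guide 1 replicate 1 or 2, or any library of both guides. Without guide 2 replicate 2, 24 of 52 relatives were called, with 23.7% of all tested genes. Relatives of BCHE (CES4A, adjusted p = 0.0253 by edgeR), SLC27A6 (ACSL5, 0.0264), FPR1 (C5AR2, 0.0308), NUDT11 (PPIP5K1, 0.00702) and PNMA8A (PNMA1, 0.00628) were then among them. With DESeq2 12 of 50 were called, with 15.3% of all tested genes.

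SPINT1, ENPP5, TMPRSS3, SLC2A9 and SLC2A1 were all highest in the empty vector. SPINT1 averaged 106 ± 12.5 CPM there and 36.5 to 48.7 CPM in the other lines, a log2 difference from the mean of the other 4 lines of 1.36 (SE 0.146, adjusted p = 0.00021 by edgeR). ENPP5, a phosphodiesterase family member and the next gene to ENPP4, was nearly an on-off gene itself. It had 0.858, 0.608 and 1.42 CPM in the empty vector and 0 to 0.130 CPM in parental cells, guide 1 and guide 2, with 0.347, 0.178 and 0.0715 CPM in both guides. Its log2 difference was 4.40 (SE 0.548, adjusted p = 0.000615 by edgeR), and the empty vector libraries did not overlap with any other. TMPRSS3, a membrane-bound serine protease of the same family as TMPRSS15, averaged 1.12 ± 0.250 CPM in the empty vector and 0.984 ± 0.235 CPM in both guides (SD, n = 3 each), and 0.393 to 0.463 CPM elsewhere. Its log2 difference was 1.09 (SE 0.191, adjusted p = 0.00441 by edgeR).

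Among the sugar transporters, SLC2A9 (GLUT9, a urate transporter) averaged 16.0 ± 2.21 CPM in the empty vector and 2.69 ± 0.309 CPM in guide 1 (SD, n = 3 each), with a log2 difference of the empty vector from the other lines of 1.58 (SE 0.302, adjusted p = 0.00694 by edgeR). SLC2A1 (GLUT1) averaged 71.1 ± 11.3 CPM in the empty vector and 37.9 ± 2.14 CPM in guide 1 (SD, n = 3 each), with a log2 difference of 0.58 (SE 0.132, adjusted p = 0.0181 by edgeR). Guide 1 was thus the lowest line for SLC2A1, SLC2A9 and SLC2A6, but the highest for SLC2A5 and SLC2A11, with means of 5.67 and 4.13 CPM. A low level of SLC2A9 was not particular to guide 1. Guide 2 replicates 1 and 3 had 2.98 and 3.05 CPM of it, and replicate 2 had 11.1 CPM. In the contrast of the empty vector with the other lines 7 of 50 relatives were called, 6 higher and 1 lower, and over all tested genes 5.60% were called higher and 1.87% lower. The median log2 difference was 0.03 for the relatives and -0.02 for all tested genes. The remaining calls were IP6K3, an inositol hexakisphosphate kinase (1.84, SE 0.425, adjusted p = 0.0198 by edgeR), and ENPP1, which was lower (-0.88, SE 0.236, adjusted p = 0.0395 by edgeR). ENPP1 was called in 7 and IP6K3 in 17 of 19 alternative fits. The count of 7 was 4 without empty vector replicate 3, where 1.85% of all tested genes were called, and 22 without guide 2 replicate 2, where 18.7% were.

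In the contrasts of the other lines with the rest, edgeR called 0 of the 50 relatives. Over all tested genes edgeR called 0.20% higher and 0.172% lower in parental cells, 0.0974% and 0.115% in guide 1, 0.0344% and 0.0286% in guide 2, and 0.149% and 0.0745% in both guides. An unadjusted p under 0.05 was found for 8 relatives (16.0%) in parental cells and 13.7% of all tested genes, and for 18 (36.0%) against 21.2% in guide 1. The same counts were 9 (18.0%) against 9.35% in guide 2 and 5 (10.0%) against 6.55% in both guides. DESeq2 called 1, 7, 1 and 1 relatives in these contrasts, with 3.06%, 5.28%, 0.997% and 0.974% of all tested genes. These contrasts share libraries with one another and with that of the empty vector. Without guide 2 replicate 2 edgeR called 3, 8, 4 and 1 of 52 relatives, with 11.4%, 5.92%, 1.85% and 1.36% of all tested genes. Without guide 1 replicate 3 the count for guide 1 was 4 of 51, with 7.45% of all tested genes.

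**Figure D5:**
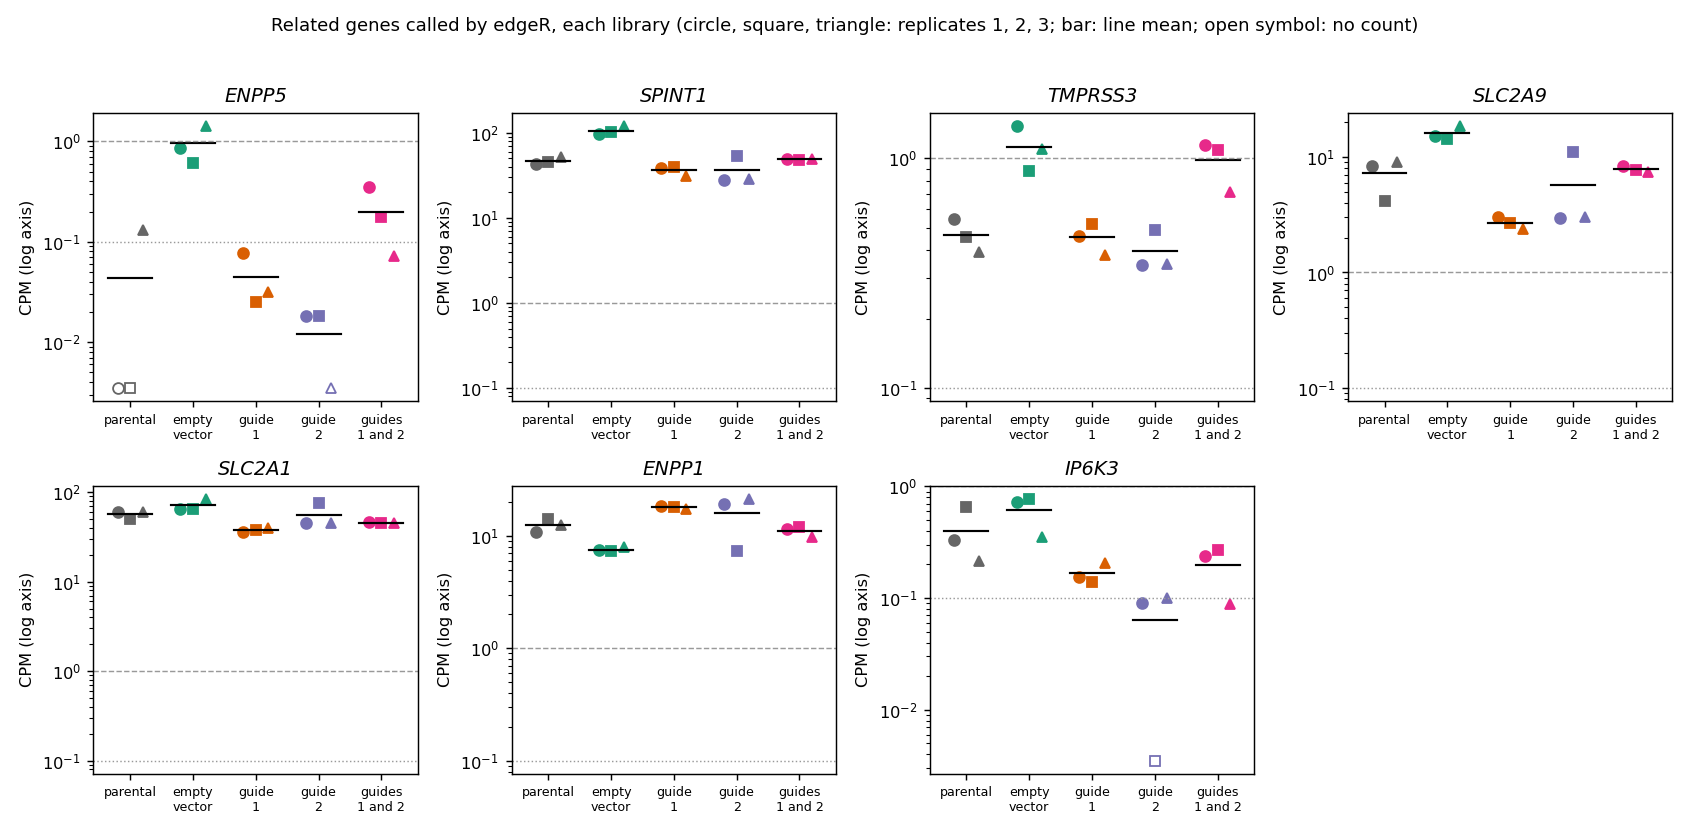
CPM on a log axis of the 7 relatives called among the lines or in the empty vector, with 1 symbol per library, a bar at the line mean, and open symbols for libraries with no count; dotted and dashed lines mark 0.1 and 1 CPM. The 3 empty vector libraries are above all others for ENPP5 and SPINT1 and, except for guide 2 replicate 2, are below all others for ENPP1.

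ACHE, the other cholinesterase, was chosen after its values were seen and averaged at most 0.0665 CPM in any line. The relatives with no count were the trypsinogen genes PRSS1 and PRSS2, which encode substrates of enteropeptidase, with TMPRSS11A, TMPRSS11B and HPN, the receptor FPR3, the PNMA genes PNMA6A, PNMA6E, PNMA6F and PNMA8C, and ENPP6 and ENPP7. Of 8 listed relatives 5 were tested for BCHE and 0 called, and for SLC27A6, FPR1, NUDT11 and PNMA8A 11 of 14, 5 of 7, 7 of 8 and 3 of 13 were tested and 0 called among the lines. In the test of any difference among the lines, 17 of the 50 relatives had an unadjusted p under 0.05 by edgeR, as did 22.1% of all tested genes.

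The genes next to each of the 8 on its chromosome were examined in the same way, taking 2 protein-coding genes on each side. Of 32 such genes 12 passed the filter and 1, ENPP5, was called, 12488 bases from ENPP4, which is 8.33% against 4.30% of all tested genes. Both genes had their highest means in the empty vector and both guides and their lowest in guide 2. ENPP5 was highest in the empty vector, whereas ENPP4 was 0.595 to 0.951 CPM there and 1.09 to 1.24 CPM in both guides. CLIC5, on the other side of ENPP4, averaged at most 0.00723 CPM. The nearest neighbours of BCHE and NUDT11 had few or no counts. SLITRK3, 575795 bases from BCHE, had no count, ZBBX, 1402815 bases from it, reached at most 0.134 CPM, in guide 1, and EZHIP and CENPVL3 beside NUDT11 had no count. CHODL, 1743 bases from TMPRSS15, averaged 0.0786 to 0.124 CPM over the lines, and NCAM2 on the other side at most 0.0157 CPM. SLC2A6 lies 247 bases from CACFD1, which averaged 1.35 to 2.31 CPM and was not called (adjusted p = 0.439 by edgeR). FBN2 was not called either (adjusted p = 0.532 by edgeR). ISOC1, on the other side of SLC27A6, averaged 26.5 to 36.7 CPM over the lines. PPP5D1P beside PNMA8A averaged 0.255 to 0.454 CPM, and PNMA8C on its other side had no count. HAS1 and FPR2 beside FPR1 averaged at most 0.0119 and 0.0177 CPM, and MYMK beside SLC2A6 at most 0.00604 CPM. Without guide 2 replicate 2, 4 of the 12 neighbours were called, the added ones being RCAN2, RUNX2 and C21orf91, with 23.7% of all tested genes, and DESeq2 called 2, with 15.3%.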

How the data were processed

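Poly(A) RNA of 15 libraries was analysed, with 3 per line; each was assigned from its own label and each table column was matched by name, leaving 0 columns of other samples. The authors deposited whole-number counts per gene and a table of CPM, which equal CPM recomputed from the deposited counts to within 4.91e-11. Per the submitters' processing notes, Trim Galore 0.6.0, STAR 2.7.8a and GRCh38 were used; the counting program, annotation and use of strand are not given in the sources used here. Positions and exons come from GENCODE release 29 on GRCh38.

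Counts were tested with edgeR 4.0.16 (filterByExpr, TMM scaling, quasi-likelihood F test, 10 residual degrees of freedom, two-sided) over all 15 libraries, and p-values were adjusted by Benjamini-Hochberg over 17457 genes at a threshold of 0.05. Standard errors are the log2 change divided by the square root of F. Alternatives were RLE scaling, no filter, a replicate block, DESeq2 1.42.0, a minimum log2 change of 1, other on-off thresholds, and leaving out each library. Counts were simulated in R 4.3.3 for 17162 genes, with guide 1 changed against the other 4 lines. In them 78% of 2-fold and 99% of 8-fold changes were recovered and 4.32% of calls were false. For any difference among the 5 lines these were 58%, 97% and 9.36%. Changes were planted only in genes above a minimum mean count, and no simulated library was set apart from its line. These rates therefore do not cover genes with few counts or data with a library like guide 2 replicate 2. Tables and plots used Python 3.11.15, numpy 2.4.6, pandas 2.3.3, scipy 1.17.1 and matplotlib 3.10.9.

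The 8 genes, and the lists of relatives and markers, were chosen with earlier results of these data known. The members carry no test. The named relatives are, per gene, up to 3 called among the lines with the smallest adjusted p and those with no count. IP6K3, ENPP1, ACHE, CES4A, ACSL5, C5AR2, PPIP5K1, PNMA1, SLC2A5 and SLC2A11 were added after their values were seen. Named neighbours are the called ones and the nearest on each side. Like genes are the 3 most correlated per member, with the 8 genes left out.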

Additional observations from a re-analysis of the deposited data

Results flagged for a closer look

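For some genes every library of one edited line lay above the mean of a control and every library of another edited line lay below it. The values are differences between the log2 ratios of the edited lines to that control, taken from mean CPM. These differences were not tested, and the 8 genes were chosen for their levels. Against parental cells, BCHE was above in guide 1 and below in guide 2 (difference 3.59), and below in guide 2 and above in both guides (difference -2.67). PNMA8A was above parental cells in guide 1 and below in guide 2 (difference 1.36). SLC2A6 was below parental cells in guide 1 and above in both guides (difference -2.57). ENPP4 was below in guide 2 and above in both guides against either control (difference -1.99 against each).

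Among the relatives, against parental cells, ENPP5 was below in guide 2 and above in both guides, with a difference of -4.04 that rests on few counts. SLC2A9 and SPINT1 were below in guide 1 and above in both guides, with differences of -1.55 and -0.42. ENPP1 was above in guide 1 and below in both guides, with a difference of 0.69.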

How the results depend on the processing

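NF1 kept its direction and call under all 19 alternatives, with log2 changes of -1.47 to -1.34, -2.15 to -2.03 and -2.22 to -2.10. Of the relatives, 5 were called among the lines; this was 3 with a replicate block, 12 with DESeq2, and 3 to 24 when 1 library was left out, with 24 without guide 2 replicate 2. For the empty vector the 7 called became 4 to 22. For the other lines, the count of 0 became 1 with DESeq2 and 0 to 3 with a library left out in parental cells, 2 with no filter, 7 with DESeq2 and 0 to 8 in guide 1, 1 with DESeq2 and 0 to 4 in guide 2, and 1 with DESeq2 and 0 to 1 in both guides. The 1 neighbour called became 2 with DESeq2 and 1 to 4 with a library left out. On-off genes numbered 30, and 13 at an on threshold of 2 CPM, 73 at 0.5 CPM, 15 with an off threshold of 0.05 CPM, 75 on line means, and 30 to 41 with a library left out; at 0.05 CPM only NUDT11 of the 8 genes remained. The cause of these shifts was not tested. No alternative reversed the direction of NF1 or of a relative called in the empty vector contrast. Counts and ranges among the lines have no direction to reverse. Over 30 pairs of libraries with the same replicate number, deviations from the line means had a mean correlation of -0.05 (-0.75 to 0.28). It was 0.03 for other pairs, so on average the numbers gave no sign of pairing. The replicate block gave NF1 changes of -1.40, -2.09 and -2.16. With every number present in every line, a block hardly moves such changes, so they do not bear on pairing. With the block 1.71% of all tested genes were called among the lines, against 4.30% without it. With 3 libraries a line and levels near 3 counts, small differences among the rarest genes were not detectable.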
